A study of Drosophila melanogaster with 4 samples.

Results

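The dpr genes of Drosophila melanogaster were examined in heads of flies fed levetiracetam, with dpr16 (Dmel_CG12591) set against its relatives. Members were chosen by name, as features that the array's gene table gives a symbol of dpr followed by a number, and kept where a value was present on at least 2 of 4 arrays. A feature is a pair of neighbouring spots, which carried the same entry wherever the gene table listed them and were paired by ID order elsewhere. The array held 11 dpr features of 8 genes, out of 13824 features in all and of 21 dpr genes in the RefSeq gene table (Release 6 assembly, used for names and gene order only). Of these, 4 features were kept, 1 each for dpr16, dpr6, dpr18 and dpr20. dpr16 itself was chosen because of its large ratio in this experiment, so its ratios are described without a test, while the other members were taken by name.

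The treated flies were Oregon-R wild type unmated adult males kept for 3 days on food with levetiracetam at 5 mg/ml, after 7 days on normal food. Levetiracetam is used against epilepsy, and its target in mammals is SV2A, a protein of synaptic vesicles. The controls were males of the same strain that stayed on normal food. RNA came from whole heads, pooled from vials of 30 flies each, and each of the 4 spotted cDNA arrays compared 1 treated with 1 control pool of a parallel set, and the 4 sets are biological replicates. The treated RNA was the Cy5 channel of replicates 1 and 2 and the Cy3 channel of replicates 3 and 4. The labels give an age of 3 to 4 days, the design text 7 to 10 days at the start of feeding, and time after collection is 2 to 3 days for the levetiracetam flies of replicate 4 and the normal food flies of replicate 1 against 10 to 11 days elsewhere. By these times the pools of replicates 1 and 4 differed, so treatment and time after collection cannot be told apart there. The pool of 2 to 3 days carried Cy3 on both of these arrays, so dye and time cannot be told apart there either. In pools of whole heads, fewer cells of a type and less RNA per cell cannot be told apart.

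The dpr genes code for cell surface proteins with a pair of immunoglobulin domains. The family is named after dpr1, whose loss gives a defective proboscis extension response to salt. In the fly nervous system dpr proteins bind partners of the DIP family, which carry immunoglobulin domains too, and particular pairs mark particular neurons and take part in synaptic matching and neuron survival. DIP-alpha is the partner of dpr6 and dpr10, and DIP-gamma is a partner of dpr11, dpr15, dpr16 and dpr17.

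The deposited values are log2 ratios of both channels, without a stated direction. They were read as Cy5 over Cy3, because channel 1 carries Cy5 on every array, and replicates 3 and 4 were multiplied by -1, which makes ratios above 0 mean higher with levetiracetam. This direction is likely only, and values as deposited, which would be right if the submitters had already turned the swapped arrays, are given beside it. A value was present for 29.2%, 45.7%, 30.0% and 36.2% of all features in replicates 1 to 4, and for 3, 5, 3 and 5 of the 11 dpr features. The median ratio over the array, on the log2 scale, was -0.15, -0.16, 0.080 and 0.31 in the likely direction. Of the marker genes for head tissues on the array, the neuronal nSyb, the photoreceptor gene Arr1, the glial genes moody and Gs2, the fat body genes apolpp and Lsp2, and the muscle genes Act88F and TpnC4 were present on 3 or more arrays. The photoreceptor gene trp, the glial gene alrm and the fat body gene Yp1 were present on fewer, the photoreceptor gene Arr2 and the fat body gene fit on none, and 0 of 3 testis and accessory gland markers reached 3 arrays. A ratio gives no level, so these show only that the spots passed the submitters' filters.

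In the likely direction dpr16 was higher with levetiracetam on all 4 arrays, and none of its 3 relatives was above 0 on every array where it had a value. The log2 ratio of levetiracetam over normal food for dpr16 was 1.14, 0.84, 1.60 and 1.37 in replicates 1 to 4. The lowest array was at 0.84, and the mean was 1.24 ± 0.33 (SD, n = 4), or 2.36-fold. Of the 2951 features with a value on all 4 arrays, 7.12% were above 0 on all 4. Since dpr16 was chosen for this ratio, nothing is read from that share or from how far its arrays lie above 0.

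As deposited, dpr16 stood at 1.14 and 0.84 where levetiracetam carried Cy5, and at -1.60 and -1.37 where it carried Cy3. The sign of its deposited ratio thus changed with the dye swap, and the mean as deposited was -0.25 ± 1.44 (SD, n = 4). Read this way, dpr16 would have gone up in one pair of replicates and down in the other. dpr16 was chosen for its ratio in the likely direction. The change of sign follows from that choice and does not tell which reading is right. The dye orientation term in limma contrasts both orientations and does not enter the mean in the likely direction. For dpr16 it was -0.25, the same value as its mean as deposited, and it is likewise given without a test. This term passed adjusted p 0.05 for 52 of 3980 features, or 1.31%, for 0 once arrays were centred, and for between 0 without replicate 3 and 140 without replicate 1 when an array was left out.

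**Figure D1:**
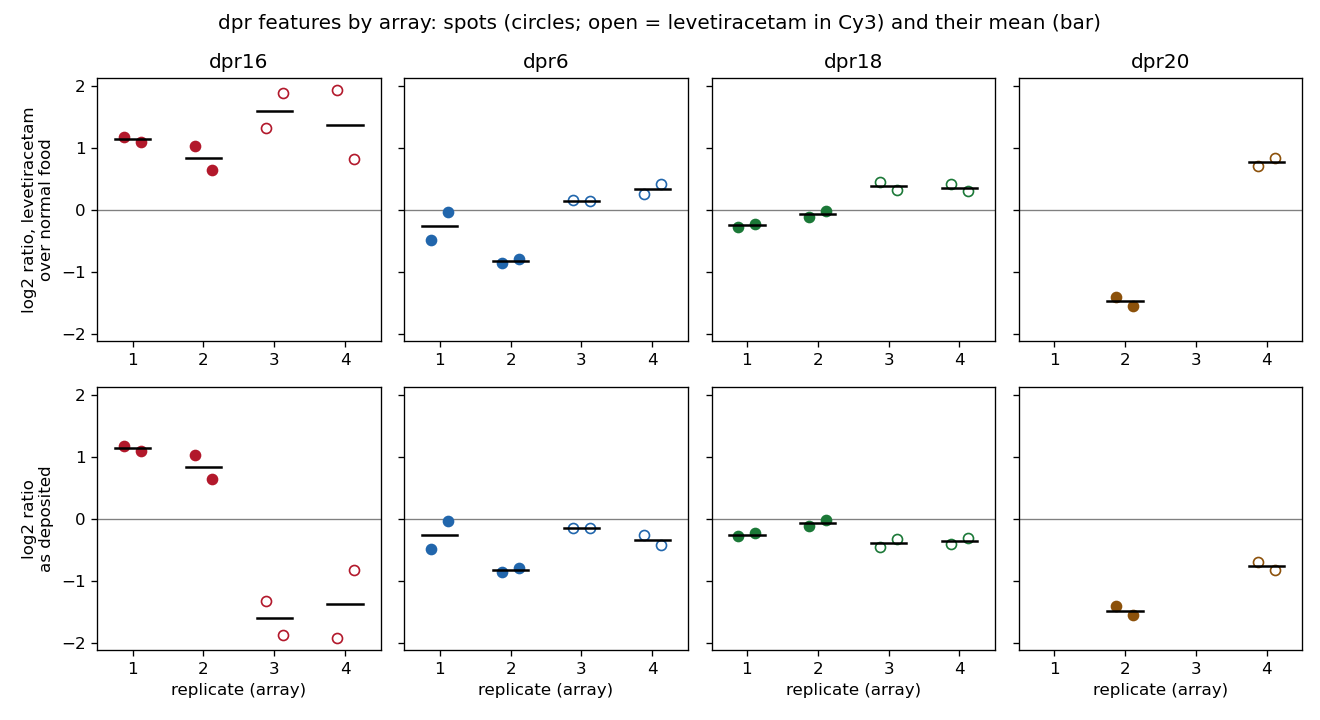
Log2 ratios of the 4 dpr features by replicate, in the likely direction, levetiracetam over normal food (top) and as deposited (bottom). Circles are single spots, open where levetiracetam carried Cy3, and bars are their means. dpr16 lies between 0.84 and 1.60 on every array in the top row and changes sign with the dye swap in the bottom row, where all values of dpr6, dpr18 and dpr20 are below 0.

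Each array value of dpr16 is the mean of 2 spots, and all 8 spots had the sign of their array's mean. Nothing is read from this agreement, since dpr16 was chosen for its ratio and both spots share an array. As deposited, the spots were 1.17 and 1.10 in replicate 1 and 1.04 and 0.65 in replicate 2. In replicates 3 and 4 they were -1.33 and -1.88, and -1.93 and -0.82. The spots differed by 0.072, 0.39, 0.55 and 1.11 on the log2 scale in replicates 1 to 4. The median difference over features with both spots was 0.27, 0.26, 0.23 and 0.29 on these arrays. The spots of replicate 1 were therefore closer to each other than is usual, while 10.6% of features had a wider gap than dpr16 in replicate 4. Averaged over the arrays, the odd-numbered spot alone gave 1.37 and the even-numbered spot alone 1.11.

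A second dpr16 feature (spots 15377 and 15378) had no value on any array, so the gene's ratio rests on the feature of spots 21113 and 21114. A missing second feature was common on this array. Of 306 genes with 2 features of which at least 1 was present on all 4 arrays, 108, or 35.3%, had no value at all for the other. Where both features of such a gene were present on all 4 arrays (73 genes), their means differed by 0.15 in the median and by 0.78 at most.

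dpr16 was also set beside the spots around it, as a description only, since it was chosen for its ratio. Values were compared with the other features of its block, 1 of 48 equal runs of spots in ID order. In the likely direction the block's median log2 ratio was -0.21, -0.35, 0.14 and 0.44 in replicates 1 to 4. No other feature of the block was above dpr16 in replicates 1 to 3, out of 58, 106 and 52, and 5 of 71 were in replicate 4. With the block's median subtracted the mean of dpr16 was 1.23. An alternative chosen after seeing the data subtracted the median of the 20 nearest features in ID order, counting only those with a value. For dpr16 these numbered 7, 10, 6 and 7 in replicates 1 to 4, and its mean was 1.21.

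On the whole array, 99.5%, 99.1%, 99.1% and 95.8% of the features with a value lay below dpr16 in replicates 1 to 4. Among the 3980 features present on 3 or more arrays its mean was the second highest. The higher one, Uxs, which codes for UDP-glucuronic acid decarboxylase, had a mean of 1.25 from 3 arrays that ranged from 0.081 to 3.45. Since dpr16 was chosen for its ratio, nothing is read from its place on the arrays or its rank. The spread of dpr16 over the arrays, an SD of 0.33, was close to the median of 0.32 over the features on all 4.

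**Figure D2:**
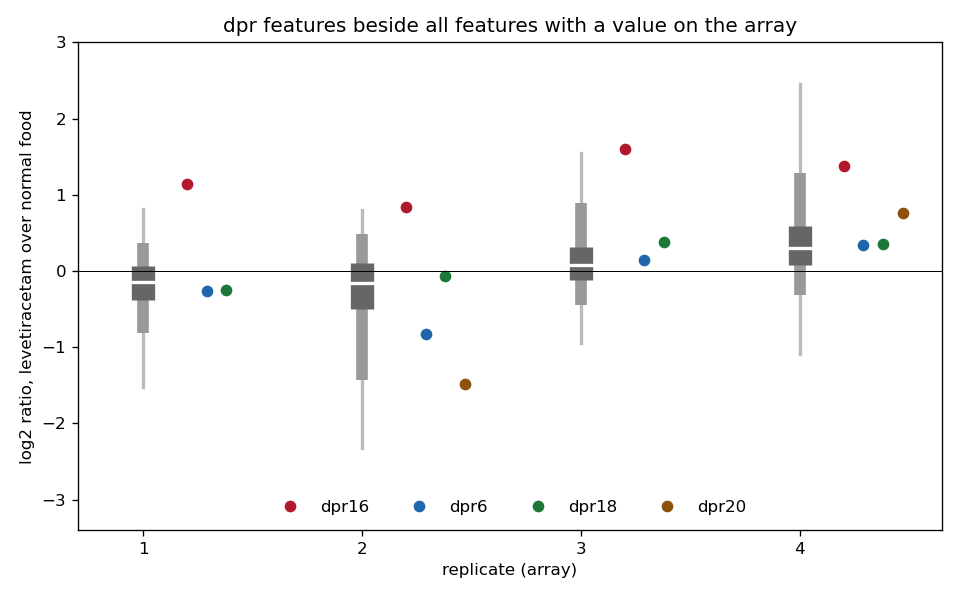
Log2 ratios of levetiracetam over normal food on each array. Grey bars span the 25th to 75th, the 5th to 95th and the 1st to 99th percentile of all features with a value, the white line is the median, and coloured points are the dpr features. dpr16, which was chosen for its large ratio, lies above the 99th percentile in replicates 1 to 3 and near the 96th in replicate 4. The other dpr features lie within the grey bars.

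dpr6 (Dmel_CG14162), a partner of DIP-alpha, had log2 ratios of levetiracetam over normal food of -0.27, -0.82, 0.15 and 0.34 in replicates 1 to 4. The first pair of arrays was below 0 and the second pair above, and the mean was -0.15 ± 0.51 (SD, n = 4). limma gave a 95% interval of -0.64 to 0.34 and an adjusted p of 1.00, over all 3980 features. Replicate 2 was the lowest, and without it the mean was 0.074. As deposited, dpr6 was below 0 on all 4 arrays, with a mean of -0.39 (limma adjusted p = 0.22), and this is also its orientation term (adjusted p = 0.20). Its spots lay 0.46 apart in replicate 1 and 0.0030 apart in replicate 3.

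dpr18 (Dmel_CG14948) was the steadiest member as deposited. Its log2 ratios of levetiracetam over normal food were -0.25, -0.065, 0.39 and 0.36 in replicates 1 to 4, so that again the arrays of one dye orientation lay below 0 and those of the other above. The mean was 0.11 ± 0.32 (SD, n = 4). limma's 95% interval was -0.30 to 0.51, and its adjusted p was 1.00. The mean was 0.013 without replicate 3, 0.022 without replicate 4 and 0.23 without replicate 1. As deposited the mean was -0.27 ± 0.15 (SD, n = 4; limma adjusted p = 0.30). The spots of dpr18 were 0.058 to 0.13 apart, closer than the median feature on each array. A second dpr18 feature had no value on any array.

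dpr20 (Dmel_CG12191) had values in replicates 2 and 4 only, at -1.48 and 0.77 for levetiracetam over normal food. These have opposite signs, and with 1 array per orientation no test was run. As deposited both were below 0, at -1.48 and -0.77, as were 53.7% of the 4267 features present on these 2 arrays. Both spots were close to each other, 0.13 apart in replicate 2 and 0.12 in replicate 4, so the difference between the arrays was not one between spots. In replicate 2, 4.40% of all features lay lower than dpr20, and in replicate 4 83.9% did.

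All 10 deposited array values of dpr6, dpr18 and dpr20 were below 0, between -1.48 and -0.065. Much of the array did the same: the means of 79.8% of the 3980 features were below 0 as deposited, and 25.2% of the features on all 4 arrays were below 0 on every one. Measured from each array's median in the likely direction, dpr6 stood at -0.12, -0.66, 0.068 and 0.032 and dpr18 at -0.11, 0.096, 0.31 and 0.052. On that scale, dpr6 in replicate 2 was the one value of these 8 that lay further from the array's median than the gene's own SD. dpr16 stood at 1.28, 1.00, 1.52 and 1.07 above it.

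The log2 ratio of dpr16 exceeded that of dpr18 by 1.39, 0.91, 1.22 and 1.02 in replicates 1 to 4 in the likely direction. Over dpr6 the excess was 1.40, 1.66, 1.45 and 1.04. Over dpr20 it was 2.32 in replicate 2 and 0.61 in replicate 4. As deposited, the differences from dpr6 and dpr18 were positive in replicates 1 and 2 and negative in replicates 3 and 4, with means of 0.14 and 0.016. Against dpr20 the deposited difference was 2.32 in replicate 2 and -0.61 in replicate 4. The median of the 3 relatives was -0.15 in the likely direction and -0.39 as deposited, beside medians of 0.028 and -0.17 over all features tested. It rested on replicate 2, without which it was 0.16, and was -0.31 without replicate 4 and -0.022 with dpr20, which is not on all 4 arrays, left out.

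**Figure D3:**
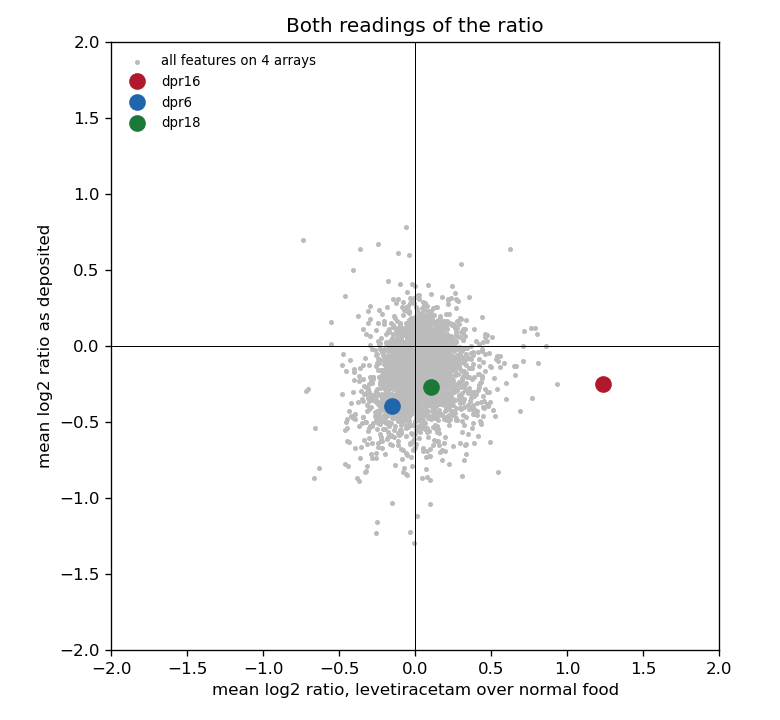
Mean log2 ratio of levetiracetam over normal food (x) against the mean as deposited (y) for the 2951 features with a value on all 4 arrays (grey). dpr16, which was chosen for its large ratio, lies at 1.24 and -0.25, at the right edge of the cloud. dpr6 (-0.15 and -0.39) and dpr18 (0.11 and -0.27) lie inside it.

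After adjustment over all features, 0 of the 2 dpr relatives tested, dpr6 and dpr18, passed adjusted p 0.05 in limma, where 0% of the 3980 features passed. At an unadjusted p under 0.05 neither passed, against 2.64% of all features. With the values as deposited dpr6 had an unadjusted p of 0.0289 in limma, and so did 19.1% of all features have one under 0.05. The intervals given above reach -0.64 for dpr6 and 0.51 for dpr18, so changes of that size are not shown to be absent.

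The remaining dpr features fell outside the rule. dpr8 had 2 features with a value on 1 array each, at 2.24 in replicate 4 and -0.83 in replicate 2 for levetiracetam over normal food. The spots behind the first were -3.86 and -0.61 as deposited, so that value rests on spots 3.25 apart. With dpr20 just inside the rule and dpr8 just outside, both of these sparsely measured genes had ratios of opposite sign in replicates 2 and 4. This holds in the likely direction only, and for dpr8 the ratios came from different features. As deposited both genes were below 0 on both arrays, with dpr8 at -0.83 in replicate 2 and -2.24 in replicate 4. So were 53.7% of the 4267 features present on both arrays, and nothing is read from the shared signs. The features of dpr5, dpr14 and dpr15 had no value on any array. In all, 5 of the 11 dpr features had none, and 27.3% had one on at least 3 arrays, against 28.8% of all features. The other 13 dpr genes were not on the array by these names.

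Few of the DIP partners could be measured. Of the 12 genes listed, which count the secreted cDIP beside the DIP genes proper, 4 were on the array. Of their features 0 had values on 3 arrays. DIP-gamma, a partner of dpr16, had values in replicates 2 and 4 only, at 0.25 and 0.41 for levetiracetam over normal food. Both were above 0, as were 29.8% of the features present on both arrays. Its spots opposed each other, at -0.030 and 0.53 in replicate 2 and at -1.39 and 0.57 as deposited in replicate 4, so the averages hide spots of both signs. DIP-kappa stood at -0.12 in replicate 2 and 1.04 in replicate 4. DIP-zeta had a value of -1.49 in replicate 2 alone, from spots at -2.79 and -0.18. The secreted cDIP, which binds several dpr and DIP proteins, had no value on any array.

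A wider list of neuronal surface proteins, many of which guide axons or act at synapses, had 28 genes and 31 features on the array. Of these features, 11 were present on 3 or more arrays. In the likely direction 8 of the 11 had a mean above 0 and 3 below, between -0.26 and 0.48 with a median of 0.21. Over all tested features 57.2% lay above 0, and the median was 0.028. As deposited 10 of the 11 lay below 0, with a median of -0.30, where 79.8% of all features did. In limma 0 of the 11 passed adjusted p 0.05, where 0% of all features did, and 0 had an unadjusted p under 0.05, against 2.64% of all features. With the values as deposited 0 passed, and 3 of the 11 had an unadjusted p under 0.05, against 19.1% of all features. No mean among them reached that of dpr16, which was chosen for its large mean.

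The highest means among those on all 4 arrays were 0.48 ± 0.50 for fipi, 0.32 ± 0.91 for Nrx-1 and 0.27 ± 0.36 for Nlg3 (SD, n = 4). fipi, an immunoglobulin domain protein that acts on male courtship song, had ratios of -0.053, 0.22, 1.08 and 0.65 in replicates 1 to 4. Its higher values were those of the arrays with levetiracetam in Cy3. Nrx-1, the fly neurexin of the presynaptic membrane, had -0.26, -0.60, 0.76 and 1.38, and so changed sign between the orientations as dpr6 and dpr18 did. Nlg3, a neuroligin, lay at -0.030, 0.44, -0.021 and 0.71. The lowest were fra, the netrin receptor, at -0.0055 ± 0.17, beat-Vb of the beaten path family at 0.080 ± 0.30, and hig, a protein of the synaptic cleft, at 0.12 ± 0.38. Of the 8 surface protein features on all 4 arrays, 0 were above 0 and 0 below 0 on every array in the likely direction, where 7.12% and 1.8% of the 2951 features on all 4 arrays were.

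Of the 16 surface protein and DIP features with values in both orientations, 15 had a higher mean ratio where levetiracetam carried Cy3 than where it carried Cy5, and so did 78.8% of all such features.

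**Figure D4:**
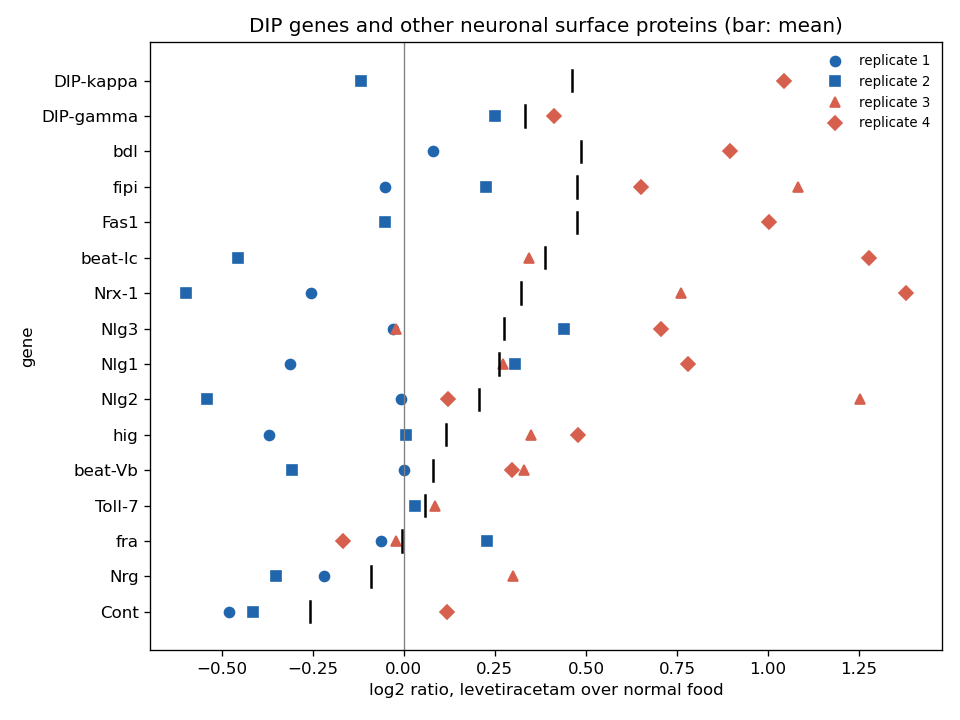
Log2 ratios of levetiracetam over normal food for DIP genes and other neuronal surface proteins with values on at least 2 arrays. Symbols mark replicates, blue where levetiracetam carried Cy5 and red where it carried Cy3, and bars are means. The mean of the red points lies to the right of that of the blue points for all genes but fra, and no bar reaches 0.84, the lowest array value of dpr16.

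The features most like dpr16 were sought among the 1712 features with 1 other gene symbol and values on all 4 arrays, by the root mean square difference of the 4 log2 ratios in the likely direction. The nearest were CG9485, the glycogen debranching enzyme, at 0.50, the sorbitol dehydrogenase gene Sodh1 at 0.57, the cytokinesis gene feo at 0.58, CG5793 at 0.62 and the cytochrome P450 gene Cyp28d1 at 0.63. dpr6 and dpr18 were at 1.41 and 1.15, where the median feature was at 1.27. feo had 1 other feature on the array and Cyp28d1 had 2, none of them with values on 2 or more arrays. CG9485, the closest, had ratios of 0.51, 0.34, 1.37 and 0.84 in replicates 1 to 4. It was chosen by these same values, so its likeness is a description only.

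Gene order gave few further values. The protein-coding neighbours of dpr16 in the RefSeq table are CG12589, which was not on the array, and CG12590, whose feature had no value on any array. Beside dpr18 lies Nipsnap, with a mean of 0.16 in the likely direction and -0.041 as deposited. Beside dpr6 lies vnc, with a mean of -0.31 in the likely direction and -0.12 as deposited. dpr5 and dpr4 are direct neighbours, and a single gene, CG4702, lies between dpr17 and dpr15, but no value was present for any of these 4 dpr genes.

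The mean of dpr16 stayed between 1.11 and 1.37 under each setting that kept the likely direction. The setting that moved it further was the reading as deposited, at -0.25. dpr6 lay below 0 throughout except without replicate 2, and dpr18 above 0 except as deposited.

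**Figure D5:**
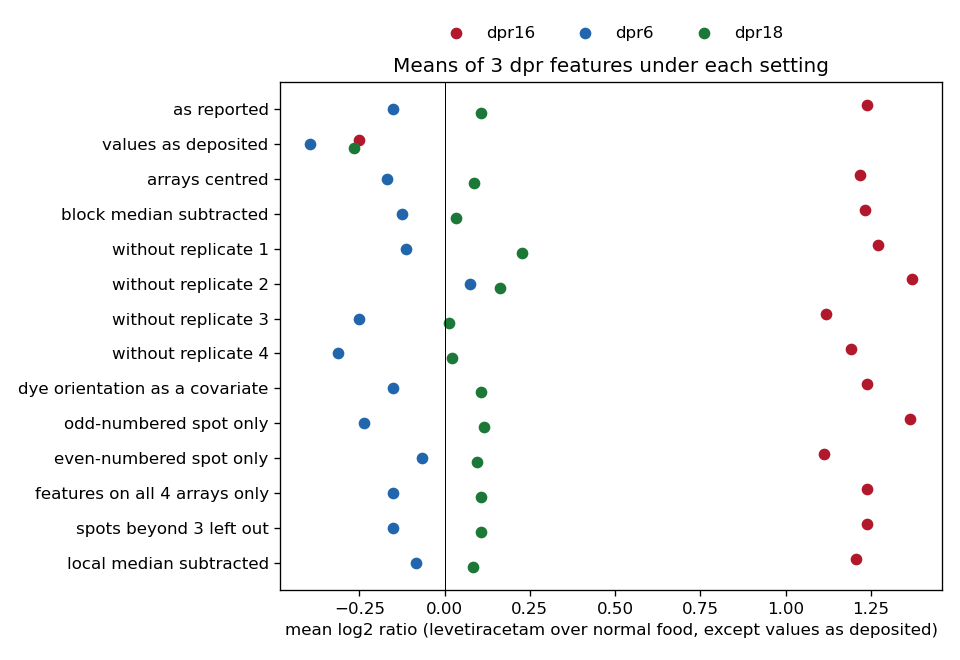
Mean log2 ratio of dpr16, dpr6 and dpr18 under each processing setting. dpr16 lies between 1.11 and 1.37 except with the values as deposited, where its mean of -0.25 is close to that of dpr18 (-0.27) and above that of dpr6 (-0.39).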

How the data were processed

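Per the labels' protocols, the slides were scanned and quantified in GenePix Pro 6.0, and the submitters normalized each array by ratio in Acuity 4.0. The deposited values are log2 ratios, blank for spots that failed the submitters' filters (under 3% saturated pixels, no bad flag, signal to noise of at least 2). That they are on the log2 scale follows from their range, since they lie on both sides of 0 and their maximum of 16.61 is the log2 of 100000. Direction and centring are not stated. Intensities were not used here, so background, dim spots and intensity-dependent normalization could not be varied. The number of arrays, 4, limits the precision. No genome build is given in the sources used here, and no sequence is shown.

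Neighbouring spots were averaged, since both had the same gene table entry in 7609 of 7609 listed pairs. Of 7558 features with 1 symbol, 7447 matched a RefSeq gene ID, which changed no symbol, and the others kept the platform's name. The 3980 features present on 3 or more arrays were fitted in limma 3.58.1 (R 4.3.3), two-sided, with Benjamini-Hochberg adjustment over all of them and a threshold of 0.05. The orientation term came from a second fit. The fits were tested on simulated data. Every dpr and DIP gene with a value was named, and of the other surface proteins the 3 highest and 3 lowest means on all 4 arrays. The 5 genes most like dpr16 were named by root mean square difference. Members, lists and rules were chosen with earlier results of these data known. The submitters' one-class SAM was not rerun.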

Additional observations from a re-analysis of the deposited data

How the results depend on the processing

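With the values as deposited, dpr16 turned to -0.25 and dpr18 to -0.27, the rank of the dpr16 mean moved to 2522, DIP genes above 0 numbered 0 in place of 2, and surface protein features above 0 numbered 1 in place of 8. With 1 array left out, dpr6 ranged from -0.31 to 0.074, above 0 without replicate 2. The rank of dpr16 was 1 with arrays centred, with block medians subtracted, with features on all 4 arrays only and with spots beyond 3 left out, 4 with the odd-numbered spot and 6 with the even-numbered spot, and it ranged from 1 to 6 with 1 array left out. DIP genes above 0 numbered 1 with the even-numbered spot and 1 to 2 with 1 array left out. The count of all features passing adjusted p 0.05 was 0, 1 with dye orientation as a covariate and 2 with the local median subtracted. The 1 was dpr16, which was chosen for this ratio, so nothing is read from it, and the 2 were Cyp313a1 and an unnamed feature. The orientation term passed for 52 features, for 0 with arrays centred or block medians subtracted, for 12 with features on all 4 arrays only, for 23 with the even-numbered spot and for 0 (without replicate 3) to 140 (without replicate 1) with 1 array left out, where 1 orientation has a single array that is assumed to vary like the others. That of dpr16 was 0.036 with block medians subtracted. The causes were not tested. With the local median subtracted, chosen after seeing the data, dpr16 stood at 1.21. Of the dpr relatives 0 passed adjusted p 0.05 under any of these. Each ratio compares both pools of 1 parallel set, so the fit over arrays is already a paired one. By the labels, however, the pools of replicates 1 and 4 differed in time after collection. Missing values, and not only spread, limit what these arrays show of the dpr genes: 5 of the 8 genes had no feature that could be tested.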
